A study of Mus musculus with 12 samples.

Results

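The cadherins and protocadherins are calcium-dependent adhesion receptors of the cell surface. The genes were chosen by name alone, as every mouse gene whose symbol begins with Cdh and a number or with Pcdh, and the rule uses no measured value. Of 93 such genes, 56 had probes on the arrays, among 25128 genes and unnamed targets measured in all. These were 19 Cdh genes, 9 protocadherins that lie outside the gene clusters, 1 gene of the Pcdha cluster, 22 of the Pcdhb cluster and 5 of the Pcdhg cluster. The other 37 genes, mostly of the Pcdha and Pcdhg clusters, are not analysed here.

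The RNA came from 3 mouse cell lines that received no treatment and were grown to confluence in the same serum-containing medium. AtT20 is a pituitary corticotroph tumor line, BV2 is an immortalized microglial line, and N18 is a neuroblastoma line that serves as a model neuron. Each line was sampled on 4 plates, grown and extracted separately, with 1 array per plate and 12 arrays in all. Plates of 1 line are cultures of the same cells, so their spread does not cover differences between isolates of a line.

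Classical cadherins bind the same cadherin on the neighboring cell through their outer domains. Inside the cell they hold p120 catenin (Ctnnd1) and beta-catenin (Ctnnb1), which joins alpha-catenin (Ctnna1, Ctnna2 or Ctnna3) and through it actin. Type I members are named for epithelium (Cdh1, E-cadherin), neural tissue (Cdh2, N-cadherin) and placenta (Cdh3, P-cadherin), and type II members such as Cdh6, Cdh7, Cdh11 and Cdh22 mark groups of neurons and mesenchyme. Protocadherins do not bind the catenins in this way. Most clustered protocadherins, the C-type genes excepted, are chosen at random from their own promoters in each neuron, which gives neurons a surface identity. The transcripts of the Pcdha cluster share constant exons at their 3′ ends, as those of the Pcdhg cluster do. The Pcdhb genes have no constant exon. The delta protocadherins (Pcdh1, Pcdh7, Pcdh8, Pcdh10, Pcdh17 and others) lie apart from the clusters and are mostly known from the developing brain.

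Levels are given below as log2 units above the mean of 10 seminal vesicle proteins on the same plate, genes that these lines are taken not to use. A gene counted as above the threshold of a line when its 4-plate mean lay more than 2 SD above these proteins, the SD being taken among them on each plate and averaged. This threshold was 0.37 ± 0.11 (SD, n = 4) on the AtT20 plates, 0.56 ± 0.15 in BV2 and 0.74 ± 0.10 in N18. A level of different genes cannot be ranked closely, because each gene has its own probes. Differences between lines are given on another scale, the log2 intensity after quantile normalization of the 12 arrays, with the SE and the Benjamini-Hochberg adjusted p of limma over all 25128 features.

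The plates labelled AtT20 stood apart from the other arrays. Their middle 50% of probe values spanned only 0.38 to 0.78 log2 units, against 1.28 to 1.73 in BV2 and 1.91 to 2.21 in N18, and their plates correlated at 0.90 to 0.95 over all probes, against 0.96 to 0.99 and 0.98 to 0.99. The corticotroph hormone gene Pomc was at 0.29 ± 0.26 (SD, n = 4) there and not above the threshold, nor were Tbx19, a pituitary transcription factor, at 0.02 ± 0.06 and the prohormone convertase Pcsk1 at 0.14 ± 0.05. Of 8 corticotroph markers, 1 (Pitx1, 0.47 ± 0.20) was above, against 4 in N18 and 2 in BV2. The neurofilament gene Nefl, by contrast, was at 4.46 ± 0.48 there. In BV2 6 of 7 microglial markers were above, such as Csf1r (4.70 ± 0.39) and Adgre1 (4.27 ± 0.36), though not Aif1 (0.30 ± 0.18). Of these 7, 2 were above in N18 and 1 on the AtT20 plates. Of 10 neuroblastoma markers, Nefl among them, 9 were above in N18 (Gap43 at 5.05 ± 0.17), 5 in BV2 and 6 on the AtT20 plates. On the quantile scale 8 of the 10 passed as higher and 2 as lower in N18 than in BV2. Against the AtT20 plates 6 were higher and 3 lower in N18. The values below are therefore those of the plates labelled AtT20. Since scaling shifts all genes between these plates and the others, members are counted there under 3 scalings: quantile normalization, no normalization and levels relative to the seminal proteins.

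A smaller share of the members than of all features was above the threshold in BV2 and N18, but not on the AtT20 plates. On the AtT20 plates 21 of 56 members (37.5%) were above the threshold, beside 35.0% of all features. In BV2 the count was 20 (35.7%), beside 53.3%, and in N18 it was 23 (41.1%), beside 55.4%. Above the threshold in all 3 lines were 12 members (21.4%), beside 25.1% of all features. Above in none were 25, which is 44.6% of the members beside 32.4% of all features. The members above in no line were 9 Cdh genes (Cdh4, Cdh8, Cdh12, Cdh13, Cdh17, Cdh20, Cdh23, Cdh24 and Cdh26), 3 unclustered protocadherins (Pcdh15, Pcdh18 and Pcdh20) and 13 Pcdhb genes. In RNA of a whole plate, fewer expressing cells and less RNA per cell cannot be told apart. Many calls rested on 1 probe: counted with at least 2 of the 3 probes of a gene above the threshold, 12 members were left on the AtT20 plates, 13 in BV2 and 15 in N18, beside 18.7%, 42.5% and 46.2% of all features.

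**Figure D1:**
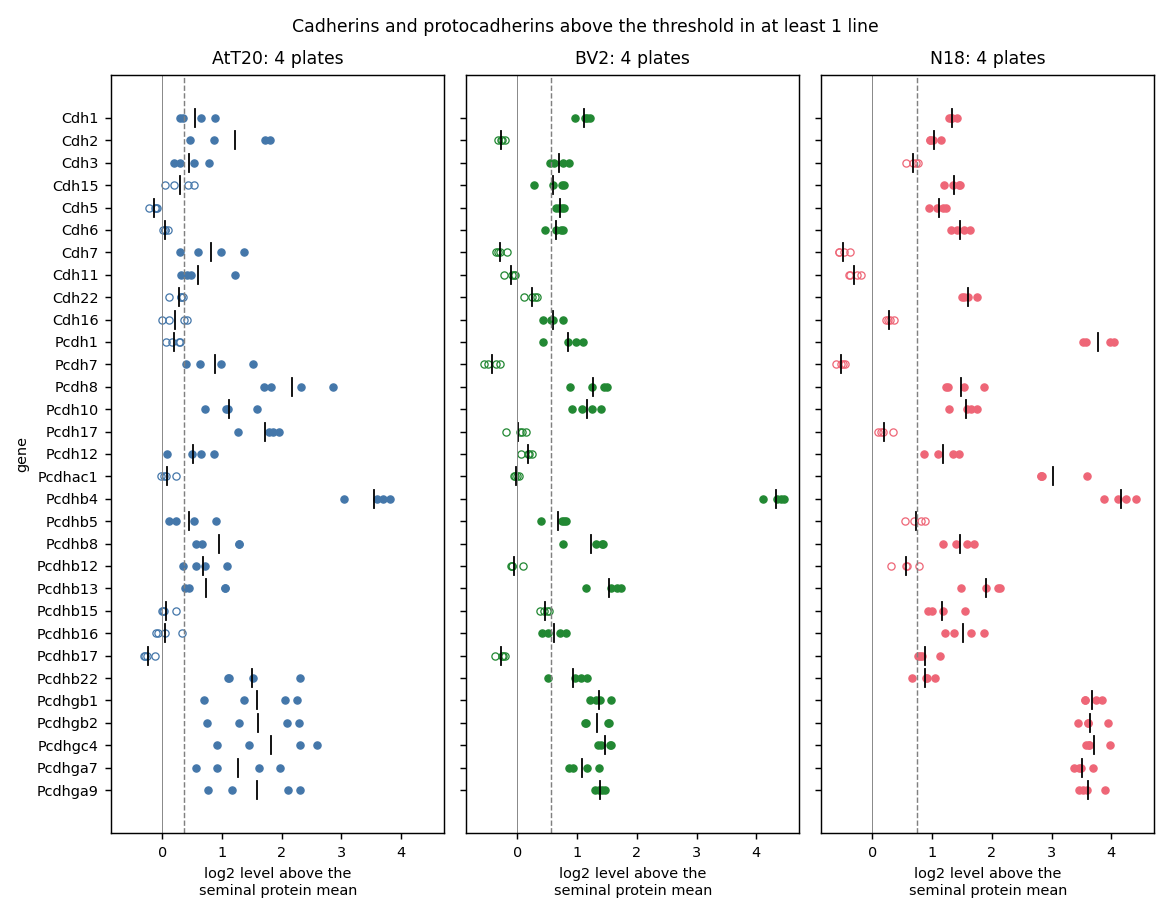
Level of the 31 members above the threshold in at least 1 line, in log2 units above the seminal protein mean (x axis), for the 4 plates of each line (points; filled where the line's mean is above its threshold, open where it is not). Black ticks are means and dashed lines the thresholds; Pcdh1, Pcdhac1 and the 5 Pcdhg genes lie further to the right in N18 than in the other lines, and the AtT20 plates are the most spread.

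The members that differed between N18 and BV2 were mostly higher in N18. Protocadherins were 13 of the 17 that passed, beside 37 of the 56 tested. In limma these 17 of 56 members (30.4%) passed an adjusted p of 0.05, beside 40.9% of all features. Of these, 15 (26.8%) were higher in N18, beside 19.0% of all features, and 2 (3.57%) were higher in BV2, beside 21.9%. Under all 3 scalings 14 members were higher in N18 (18.7% of all features were) and 0 were higher in BV2 (7.16% of all features were). The median difference over the 56 members was 0.00, beside -0.06 over all features, and the 4 plates of the lines did not overlap for 28 of 56 members, beside 55.4% of all features. Relative to the seminal proteins 24 members were higher in N18 and 2 lower, beside 38.8% and 13.1% of all features. Fitting the 8 arrays of N18 and BV2 alone, without the spread of the AtT20 plates, raised the count to 34 members, 20 higher in N18 and 14 higher in BV2, beside 61.7% of all features.

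Pcdh1, a delta-1 protocadherin, was the unclustered member with the largest difference between N18 and BV2. Its level in N18 was 3.98, 4.04, 3.53 and 3.58 on the 4 plates. In BV2 it was 1.11, 0.43, 0.85 and 0.98, and on the AtT20 plates 0.28, 0.30, 0.07 and 0.16. The N18 plates did not overlap with those of either other line, and the 3 probes of the gene in N18 stood at 3.79, 4.14 and 3.28. In BV2 the level came from 1 probe (1.54, with 0.12 and 0.33 for the others). After quantile normalization Pcdh1 was 4.49-fold higher in N18 than in BV2 (log2 difference 2.17 ± 0.12 SE, adjusted p = 4.5e-10). Against the AtT20 plates, where it was not above the threshold, it was at least 3.1-fold higher (log2 difference 2.03 ± 0.12 SE, adjusted p = 3.6e-10). Such a lower bound sets the brighter line against the threshold of the dimmer one and is the smallest of the 3 scalings.

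Pcdhac1, a C-type gene of the Pcdha cluster, was the other member higher in N18 than in both other lines under all 3 scalings. Its N18 plates read 2.83, 3.59, 2.84 and 2.82. The BV2 plates read 0.03, -0.05, -0.03 and 0.00, and the AtT20 plates 0.03, -0.03, 0.06 and 0.23. Pcdhac1 was thus at the level of the seminal proteins in both other lines, and its 3 probes in N18 stood at 3.87, 2.67 and 1.71. It was at least 3.1-fold higher in N18 than in BV2 (log2 difference 2.19 ± 0.13 SE, adjusted p = 9.0e-10) and at least 1.9-fold higher than on the AtT20 plates (1.65 ± 0.13 SE, adjusted p = 9.5e-09). It is the single Pcdha gene measured here, and whether its probes lie in the exons that all genes of the cluster share was not tested.

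The 5 Pcdhg genes measured (Pcdhga7, Pcdhga9, Pcdhgb1, Pcdhgb2 and Pcdhgc4) moved as a block. In N18 the 5 genes were at 3.49 to 3.63 on plate 1, 3.69 to 3.97 on plate 2, 3.38 to 3.57 on plate 3 and 3.46 to 3.74 on plate 4. In BV2 they were at 1.37 to 1.57, 0.87 to 1.35, 1.13 to 1.41 and 0.94 to 1.54. The N18 plates did not overlap with those of BV2 for any of the 5, and on 1 plate the genes differed among themselves by 0.14 to 0.61 in these lines. The log2 difference, N18 minus BV2, ran from 1.47 ± 0.14 (SE) in Pcdhga9 to 1.61 ± 0.16 in Pcdhga7, or 2.77-fold to 3.06-fold, with adjusted p from 5.9e-08 to 3.6e-07.

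The probes of the 5 Pcdhg genes showed the same layout. The number in a probe's name rose by 283 from the gene's first to its second probe in all 5 genes, and by 523 to 525 from the second to the third, while each of the 22 Pcdhb genes had a spacing of its own. The second probe of the 5 genes averaged 3.14 ± 0.19 (SD, n = 4 plates) in N18, 1.19 ± 0.15 in BV2 and 0.32 ± 0.11 on the AtT20 plates, with the 5 genes within 3.07 to 3.21, 1.09 to 1.24 and 0.18 to 0.51. At each of the 3 probes the 5 genes in N18 lay above all 5 in the other lines. Whether the probes lie in the shared constant exons was not tested, since probe sequences were not used here. The 15 members higher in N18 than in BV2 include these 5. Counted as 1 reading of the Pcdhg cluster, they leave 13 of 52 members called, beside 40.9% of all features. Of these, 11 were higher in N18, beside 19.0% of all features.

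**Figure D2:**
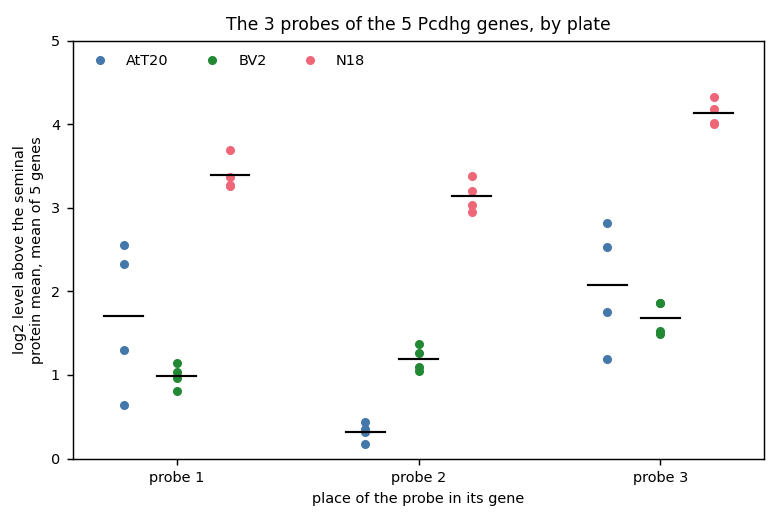
Level of probes 1, 2 and 3 (x axis) of the Pcdhg genes, averaged over the 5 genes, in log2 units above the seminal protein mean (y axis); each point is 1 of 4 plates of a line and each black line the mean. All 3 are highest in N18, and on the AtT20 plates probe 2 (0.32) lies far below probes 1 (1.70) and 3 (2.07).

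On the AtT20 plates the Pcdhg reading was the least even. The ranges of the 5 genes were 1.98 to 2.60, 1.61 to 2.31, 0.56 to 0.92 and 0.92 to 1.46, so plates 1 and 2 were above plates 3 and 4. All 5 genes were above the threshold there too. Between N18 and these plates none of the 5 passed after quantile normalization (log2 differences 0.01 to 0.27, adjusted p 0.13 to 0.94), whereas on the scale of the seminal proteins they were 1.88 to 2.24 log2 units higher in N18.

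In the Pcdhb cluster, whose genes are numbered in their order on the chromosome, 13 of 22 genes were above the threshold in no line. Pcdhb4, Pcdhb8, Pcdhb13 and Pcdhb22 were above in all 3 lines. Pcdhb15 and Pcdhb17 were above in N18 alone, Pcdhb16 in N18 and BV2, Pcdhb5 in BV2 and on the AtT20 plates, and Pcdhb12 on the AtT20 plates alone. Neighbors that were above together were Pcdhb15 to Pcdhb17 in N18, Pcdhb4 and Pcdhb5 in BV2 and on the AtT20 plates, and Pcdhb12 and Pcdhb13 on the AtT20 plates.

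The level of Pcdhb4 rested on 1 of its 3 probes in BV2 and N18. The plates read 4.25, 4.11, 3.87 and 4.42 in N18, 4.41, 4.12, 4.35 and 4.47 in BV2, and 3.82, 3.70, 3.05 and 3.60 on the AtT20 plates. That probe stood at 5.71, 5.89 and 4.98 in the same order of lines, and the other probes were at 0.73 or lower in every line. The gene was 1.55-fold lower in N18 than in BV2 after quantile normalization (log2 difference -0.63 ± 0.13 SE, adjusted p = 0.00077), but with no normalization (-0.21) and relative to the seminal proteins (-0.18) the difference did not pass, and the plates overlapped on that scale. Pcdhb13 read 1.68, 1.14, 1.56 and 1.74 there and 2.14, 1.91, 1.49 and 2.10 in N18, ranges that overlapped (adjusted p = 0.52).

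Pcdhb17 was above the threshold in N18 alone. It read 0.76, 1.13, 0.84 and 0.80 in N18, -0.24, -0.25, -0.37 and -0.21 in BV2, and -0.26, -0.30, -0.12 and -0.28 on the AtT20 plates. The groups did not overlap, although only 1 of its 3 probes passed the N18 threshold. The log2 difference was 0.70 ± 0.09 (SE) against BV2 (adjusted p = 1.0e-05) and 0.72 ± 0.09 against the AtT20 plates (adjusted p = 2.0e-06), and the latter turned to -0.27 with no normalization. Pcdhb16 (0.41 ± 0.16 SE, adjusted p = 0.049) also passed between N18 and BV2, as did Pcdhb11 (0.71 ± 0.10) and Pcdhb20 (0.23 ± 0.08), which were above the threshold in neither line. The Pcdhb16 call was lost without any 1 of the BV2 plates or of N18 plates 1, 2 and 3, and the Pcdhb20 call without BV2 plate 1 or 2 or any 1 of the N18 plates.

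**Figure D3:**
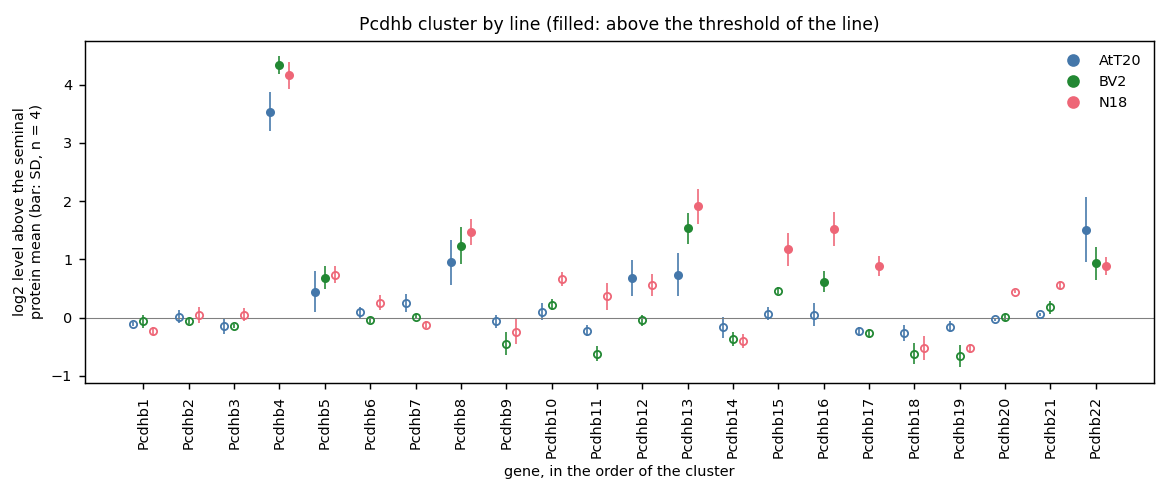
Mean level of the 22 Pcdhb genes in the order of their cluster (x axis), in log2 units above the seminal protein mean (y axis; bars are the SD of 4 plates), by line. Filled points are above the threshold of their line; Pcdhb4, whose level rests on 1 probe in BV2 and N18, is at 3.54 to 4.34, and Pcdhb15 to Pcdhb17 are filled in N18.

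Of the 19 Cdh genes, 6 were above the threshold in N18, 6 in BV2 and 5 on the AtT20 plates. Cdh1, Cdh2, Cdh5, Cdh6, Cdh15 and Cdh22 were above in N18, and Cdh1, Cdh3, Cdh5, Cdh6, Cdh15 and Cdh16 in BV2. On the AtT20 plates they were Cdh1, Cdh2, Cdh3, Cdh7 and Cdh11. Cdh2, Cdh6 and Cdh22 passed between N18 and BV2 as higher in N18, and Cdh16 as higher in BV2.

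Cdh2, the N-cadherin of neural and mesenchymal cells, was above the threshold in N18 and on the AtT20 plates but not in BV2. It read 1.01, 1.15, 0.97 and 0.97 in N18 and 1.81, 1.72, 0.46 and 0.87 on the AtT20 plates. In BV2 it read -0.21, -0.32, -0.27 and -0.26, below the seminal proteins on every plate. No BV2 plate overlapped with a plate of the other lines. Cdh2 was higher in N18 than in BV2 by 0.82 ± 0.15 (SE) on the log2 scale (adjusted p = 0.00036) and at least 1.5-fold lower in BV2 than on the AtT20 plates (log2 difference -2.43 ± 0.15 SE, adjusted p = 5.3e-10). The N18 level came mainly from 1 probe (1.92, with 0.43 and -0.01 for the others), and with the median of the probes the N18 to BV2 difference no longer passed (0.52). Between N18 and the AtT20 plates it was -1.61 on the quantile scale but -0.19, not passing, relative to the seminal proteins.

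Cdh22 and Cdh6, type II cadherins of the brain and of kidney and neural crest, were higher in N18 than in BV2. Cdh22 read 1.61, 1.76, 1.54 and 1.50 in N18, 0.30, 0.32, 0.12 and 0.24 in BV2, and 0.32, 0.32, 0.12 and 0.35 on the AtT20 plates. Only the N18 plates were above their threshold, and the level rested on 1 probe at 2.59 and 1 at 0.94, with the other at 0.22. Its log2 difference, N18 minus BV2, was 0.75 ± 0.09 (SE, adjusted p = 6.3e-06), at least 1.3-fold, and it fell to 0.27 and did not pass with the median of the probes. Against the AtT20 plates the difference was -0.04 ± 0.09 (SE, adjusted p = 0.69) on the quantile scale and 1.32 relative to the seminal proteins, where it passed. Cdh6 had 3 probes in accord (1.54, 1.48 and 1.40 in N18; 0.76, 0.60 and 0.59 in BV2). Its plates read 1.53, 1.63, 1.31 and 1.42 in N18, 0.65, 0.47, 0.77 and 0.73 in BV2, and 0.05, 0.01, 0.04 and 0.10 on the AtT20 plates. These were 3 separate ranges on this scale. The difference between N18 and BV2 after quantile normalization was 0.33 ± 0.09 (SE, adjusted p = 0.0081), or 1.26-fold.

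Cdh1, the epithelial E-cadherin, was above the threshold in all 3 lines, but not in any of them with olfactory receptor genes as controls. All 3 probes were above in N18 and BV2, against 1 on the AtT20 plates. There the call was lost in 6 of the 8 alternatives for the threshold. Cdh1 read 1.34, 1.32, 1.29 and 1.41 in N18, 1.13, 0.96, 1.22 and 1.17 in BV2, and 0.30, 0.88, 0.34 and 0.66 on the AtT20 plates. The N18 plates were above those of BV2 on this scale, but after quantile normalization the difference was -0.18 ± 0.13 (SE, adjusted p = 0.27), and its sign turned with the scaling (0.22 relative to the seminal proteins and 0.19 with no normalization). Of 5 epithelial markers, 3 were above the threshold in N18 and 2 in each other line, their summed level ran from 3.57 to 4.49 in N18, 1.33 to 2.31 in BV2 and 1.19 to 3.92 on the AtT20 plates, and the keratin gene Krt8 was near 0 in all (0.05 ± 0.10, -0.20 ± 0.23 and 0.13 ± 0.19). Their part in the Cdh1 level was not tested.

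Cdh5, the VE-cadherin of endothelium, was at 1.11 ± 0.13 (SD, n = 4) in N18, 0.72 ± 0.06 in BV2 and -0.13 ± 0.06 on the AtT20 plates. The whole of it came from the first probe (2.21, 1.78 and 0.00), while the other probes were between -0.63 and 0.19. It passed as higher in N18 and in BV2 than on the AtT20 plates (log2 differences 0.56 ± 0.11 and 0.59 ± 0.11 SE, adjusted p = 0.00017 and 0.00011), and both turned to a negative sign with no normalization (-0.15 and -0.51). Of 5 endothelial markers 2 were above the threshold in N18 and in BV2 and 1 on the AtT20 plates, their summed level was 3.87 to 4.14, 1.73 to 2.46 and 0.36 to 1.71, and Pecam1 stood at 2.23 ± 0.12, 1.70 ± 0.11 and 0.11 ± 0.11. Their part in the Cdh5 level was not tested.

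The remaining Cdh genes above a threshold were Cdh15, Cdh3 and Cdh16. Cdh15, the M-cadherin of muscle, was at 1.37 ± 0.13 (SD, n = 4) in N18, 0.60 ± 0.23 in BV2 and 0.30 ± 0.22 on the AtT20 plates, with a log2 difference between N18 and BV2 of 0.27 ± 0.15 (SE, adjusted p = 0.16). That difference passed with no normalization (0.74) and relative to the seminal proteins (0.77), and also when the 8 arrays were fitted alone or AtT20 plate 1 was left out. Cdh3, the P-cadherin, was at 0.69 ± 0.09, 0.70 ± 0.14 and 0.45 ± 0.26, and its N18 to BV2 difference of -0.24 ± 0.13 (SE, adjusted p = 0.16) passed only when the 8 arrays were fitted alone or AtT20 plate 1 was left out. Cdh16, the kidney cadherin, was at 0.29 ± 0.06 in N18, 0.59 ± 0.14 in BV2 and 0.22 ± 0.20 on the AtT20 plates. Its difference of -0.41 ± 0.12 (SE, adjusted p = 0.010) between N18 and BV2 did not pass with no normalization (-0.33), and 1 of its 3 probes was above the BV2 threshold.

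**Figure D4:**
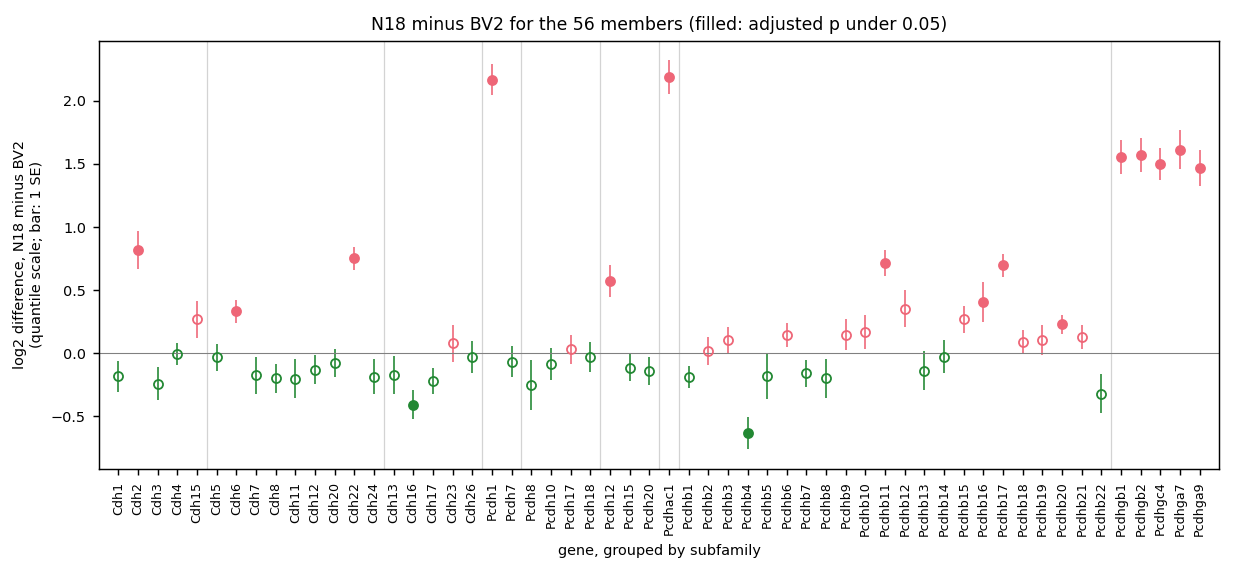
Log2 difference between N18 and BV2 after quantile normalization (y axis; bars are 1 SE) for the 56 members grouped by subfamily (x axis), red where higher in N18 and green where higher in BV2. Filled points passed an adjusted p of 0.05; Pcdh1 (2.17), Pcdhac1 (2.19) and the 5 Pcdhg genes (1.47 to 1.61) are the only members beyond 1 log2 unit.

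The plates labelled AtT20 shared 12 of their 21 members above the threshold with both other lines (21.4% of members, beside 25.1% of all features). Above there alone were 5 (Pcdh17, Pcdh7, Cdh7, Cdh11 and Pcdhb12). After quantile normalization 40 members (71.4%) passed between N18 and the AtT20 plates, beside 76.4% of all features, with 7 higher in N18 and 33 higher on the AtT20 plates (58.9%, beside 48.6% of all features, while 12.5% were higher in N18, beside 27.8%). Between BV2 and the AtT20 plates 43 passed (76.8%, beside 73.6%), with 2 higher in BV2 (3.57%, beside 26.6%) and 41 higher on the AtT20 plates (73.2%, beside 47.0%). Plates did not overlap on the quantile scale for 37 members (66.1%) in each comparison, beside 68.2% of all features against N18 and 62.6% against BV2. Relative to the seminal proteins the split was 27 higher and 18 lower in N18, beside 60.7% and 16.3% of all features, and 11 higher and 21 lower in BV2, beside 50.4% and 17.6%. The scaling itself moved all genes: the median over all features in N18 minus AtT20 was -0.25 on the quantile scale, 0.54 on that of the seminal proteins and -0.85 with no normalization, and -0.23, 0.28 and -1.08 in BV2 minus AtT20. Both comparisons share the 4 AtT20 plates.

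Higher on the AtT20 plates under all 3 scalings were 16 members (28.6%) against N18, beside 16.0% of all features, and 20 members (35.7%) against BV2, beside 17.2%. Only 6 of the 16 and 9 of the 20 were above the threshold on the AtT20 plates. The others lay below it, some close under it (Cdh23 at 0.35 and Pcdh20 at 0.30) and some near the seminal proteins (Pcdh18 at -0.10). Higher in N18 than there under all 3 were Pcdh1 and Pcdhac1 alone (3.57% of members, beside 18.7%), and 0 members were higher in BV2, beside 11.7%. Against both lines the count was 13. The share over all features was not counted for this overlap, and both comparisons use the same 4 AtT20 plates. Of these 13 members, 7 were above the threshold in no line. The other 6 were Pcdh17, Pcdh7, Pcdh8, Cdh7, Cdh11 and Pcdhb22.

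Pcdh17, a delta-2 protocadherin of brain circuits, had the largest differences of these. It read 1.95, 1.86, 1.27 and 1.79 on the AtT20 plates, 0.05, 0.15, -0.19 and 0.08 in BV2, and 0.14, 0.10, 0.19 and 0.34 in N18. The AtT20 plates did not overlap with the others, and 2 of the 3 probes were above the threshold (1.72 and 2.33, with 0.35 for the other). The level was at least 1.9-fold lower in N18 (log2 difference -2.75 ± 0.12 SE, adjusted p = 5.7e-12) and at least 2.2-fold lower in BV2 (-2.78 ± 0.12 SE, adjusted p = 4.9e-12).

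Pcdh7, a delta-1 protocadherin, and Cdh7, a type II cadherin of neural tissue, had the same order of lines. Pcdh7 read 1.53, 0.98, 0.39 and 0.63 on the AtT20 plates, -0.29, -0.49, -0.55 and -0.36 in BV2, and -0.60, -0.50, -0.46 and -0.52 in N18. Cdh7 read 1.37, 0.98, 0.29 and 0.61, then -0.35, -0.29, -0.17 and -0.32, then -0.55, -0.56, -0.47 and -0.38. No plate of another line reached the lowest AtT20 plate, plate 3, for either gene. The log2 differences were -2.14 ± 0.12 (SE) in N18 and -2.08 ± 0.12 in BV2 for Pcdh7, and -2.15 ± 0.15 and -1.98 ± 0.15 for Cdh7, all with adjusted p of at most 4.3e-09. Since both genes were below the threshold elsewhere, the bound was at most 1.2-fold, and Pcdh7 rested on 1 probe (1.85, with -0.09 and -0.21 for the others).

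Cdh11, the osteoblast and mesenchyme cadherin, read 1.22, 0.48, 0.41 and 0.32 on the AtT20 plates, with 1 probe at 1.42 and the others at -0.18 and -0.10. It was at -0.10 ± 0.08 (SD, n = 4) in BV2 and -0.30 ± 0.10 in N18. Plate 1 of AtT20 stood well above the other plates of that line, and plate 4 was below its own threshold. Of 5 fibroblast markers 3 were above the threshold on the AtT20 plates, 2 in BV2 and 3 in N18, their summed level ran from 1.40 to 4.23, 1.45 to 2.50 and 4.65 to 6.13, and the collagen gene Col1a1 was at 1.69 ± 0.64 on the AtT20 plates. Their part in the Cdh11 level was not tested.

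Pcdh8, a delta-2 protocadherin known from synapses, and Pcdhb22 were above the threshold in all lines and had their highest means on the AtT20 plates. Pcdh8 read 1.83, 2.85, 1.70 and 2.32 there, 1.25, 0.88, 1.51 and 1.45 in BV2, and 1.54, 1.27, 1.23 and 1.87 in N18, where plate 4 overlapped with the AtT20 range. The Pcdh8 means on this scale were 2.17 on the AtT20 plates and 1.48 in N18. Quantile normalization widened the gap to 4.31-fold (log2 difference, N18 minus AtT20, -2.11 ± 0.20 SE, adjusted p = 5.8e-08). With the median of the probes the difference was -0.31 and did not pass, since 1 probe (3.53) carried the level. Pcdhb22 was at 1.51 ± 0.56 (SD, n = 4) on the AtT20 plates, 0.93 ± 0.29 in BV2 and 0.88 ± 0.16 in N18. Its difference to N18 was also wider on the quantile scale (-1.93 ± 0.16 SE, adjusted p = 1.1e-08). It likewise fell to -0.26 and did not pass with the median of the probes.

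Pcdh12, the protocadherin of vascular endothelium, was at 1.19 ± 0.26 (SD, n = 4) in N18, 0.17 ± 0.08 in BV2 and 0.52 ± 0.33 on the AtT20 plates, and it was at least 1.1-fold higher in N18 than in BV2 (log2 difference 0.57 ± 0.13 SE, adjusted p = 0.0019). Pcdh10, a delta-2 protocadherin, was above the threshold in all 3 lines, at 1.57 ± 0.20, 1.16 ± 0.21 and 1.12 ± 0.36 in the same order. Its level came from 1 probe (2.87, 2.32 and 2.12), and N18 and BV2 did not differ beyond their spread (-0.08 ± 0.13 SE, adjusted p = 0.64).

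The promoters of Pcdh17, Cdh7 and Pcdh7, which were above the threshold on the AtT20 plates alone, and of Cdh22, above in N18 alone, are shown because these genes were above the threshold in 1 line each. RefSeq promoters (build GRCm38.p6, 250 bases before the transcript start and 50 after it) were matched by symbol for 17 of the 56 members. Capitals mark the E-box CAGGTG or its reverse CACCTG, searched on both strands, which the Snail, Zeb and Twist family of cadherin repressors can bind. At least 1 such E-box is held by 20.2% of all 32851 promoters.
Pcdh17, chr14:84443313-84443612, plus strand: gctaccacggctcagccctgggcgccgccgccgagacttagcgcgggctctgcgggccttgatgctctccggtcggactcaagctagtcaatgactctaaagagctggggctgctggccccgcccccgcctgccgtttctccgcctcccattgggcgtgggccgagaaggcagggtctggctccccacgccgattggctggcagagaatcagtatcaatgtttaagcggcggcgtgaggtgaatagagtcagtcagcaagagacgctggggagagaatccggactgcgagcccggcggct
Cdh7, chr1:109982650-109982949, plus strand: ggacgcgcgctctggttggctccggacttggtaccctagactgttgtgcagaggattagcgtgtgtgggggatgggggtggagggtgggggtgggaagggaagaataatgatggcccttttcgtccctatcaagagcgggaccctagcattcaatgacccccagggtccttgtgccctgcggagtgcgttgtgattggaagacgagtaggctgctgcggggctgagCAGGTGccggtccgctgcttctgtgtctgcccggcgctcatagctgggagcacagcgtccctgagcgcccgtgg
Pcdh7, chr5:57717831-57718130, plus strand: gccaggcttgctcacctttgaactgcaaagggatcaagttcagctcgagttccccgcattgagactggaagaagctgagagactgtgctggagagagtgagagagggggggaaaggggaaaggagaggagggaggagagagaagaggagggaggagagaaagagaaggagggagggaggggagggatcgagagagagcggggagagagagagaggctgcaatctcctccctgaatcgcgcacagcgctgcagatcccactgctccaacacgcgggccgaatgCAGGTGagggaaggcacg
Cdh22, chr2:165234688-165234987, minus strand: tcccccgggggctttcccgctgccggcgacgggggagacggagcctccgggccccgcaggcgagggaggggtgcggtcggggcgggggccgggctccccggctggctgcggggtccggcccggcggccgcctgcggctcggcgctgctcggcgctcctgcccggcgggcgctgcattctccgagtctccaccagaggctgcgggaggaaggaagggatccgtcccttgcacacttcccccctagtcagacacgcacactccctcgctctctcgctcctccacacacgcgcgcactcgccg
The Cdh7 sequence is the first of 3 starts listed for that gene. Cdh7 and Pcdh7 hold 1 E-box each and Pcdh17 and Cdh22 hold 0 in this window. The windows hold 26 CpG in Pcdh17, 18 in Cdh7, 11 in Pcdh7 and 38 in Cdh22, beside a median of 7 over all promoters. Cdh22 has more CpG than 95.0% of promoters, and Pcdh7 more than 58.6%.

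Of the 7 repressor genes, 1 (Zeb1) passed as higher and 1 (Zeb2) as lower in N18 than in BV2 on the quantile scale, beside 19.0% and 21.9% of all features. Zeb1 was at 1.69 ± 0.16 (SD, n = 4) in N18 and not above the threshold in BV2 (0.24 ± 0.24) or on the AtT20 plates (-0.17 ± 0.13), and Twist1 was above on the AtT20 plates alone (0.76 ± 0.31). Zeb2, Twist2 and Tcf3 were above in all 3 lines, and Snai1 and Snai2 in none.

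Some cytoplasmic partners of the cadherins differed by more between N18 and BV2 than any member did. Of 14 catenins, plakophilins and related genes, 12 were above the threshold in N18, 10 in BV2 and 6 on the AtT20 plates. The shares of all features were 55.4%, 53.3% and 35.0%. Under all 3 scalings 7 of the 14 were higher in N18 than in BV2 and 1 was lower, beside 18.7% and 7.16% of all features. Against the AtT20 plates 7 were higher and 1 lower in N18, beside 18.7% and 16.0%. In BV2 3 were higher and 3 lower than on the AtT20 plates, beside 11.7% and 17.2%. The median quantile-scale difference of the 14 was 0.20 in N18 minus BV2, beside -0.06 over all features.

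Ctnnb1, beta-catenin, was high throughout, at 5.88 ± 0.24 (SD, n = 4) in N18, 5.52 ± 0.34 in BV2 and 3.29 ± 0.71 on the AtT20 plates. Its relative Jup, or plakoglobin, was at 5.04 ± 0.22 in N18, 1.08 ± 0.12 in BV2 and 0.12 ± 0.24 on the AtT20 plates. The Jup difference of 3.39 ± 0.21 (SE, adjusted p = 1.1e-09) between N18 and BV2 was the largest of the partner genes, and against the AtT20 plates it was at least 8.6-fold.

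The alpha-catenins split by line. Ctnna2, the neuronal alpha-catenin, was at 4.06 ± 0.22 (SD, n = 4) in N18 and at the level of the seminal proteins in BV2 (-0.11 ± 0.10) and on the AtT20 plates (-0.07 ± 0.07), a difference of 3.29 ± 0.15 (SE, adjusted p = 2.2e-11) against BV2, at least 6.4-fold. Ctnna1, the widely used alpha-catenin, was at 4.13 ± 0.27 in N18, 2.53 ± 0.33 in BV2 and -0.04 ± 0.01 on the AtT20 plates, at least 4.0-fold lower there than in N18 (adjusted p = 1.2e-11). Ctnna3 was above the threshold on the AtT20 plates alone, at 0.81 ± 0.12. The plates labelled AtT20 thus gave Cdh2, Cdh7 and beta-catenin signal with Ctnna1 and Ctnna2 near 0.

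Of the p120 family, which binds the membrane-near part of the cadherin tail, Ctnnd1 was at 3.04 ± 0.22 (SD, n = 4) in N18, 1.83 ± 0.38 in BV2 and 0.17 ± 0.25 on the AtT20 plates. Ctnnd2, the neural delta-catenin, was higher in BV2 (2.69 ± 0.45) than in N18 (0.85 ± 0.08), with a log2 difference, N18 minus BV2, of -2.01 ± 0.16 (SE, adjusted p = 2.9e-08), and at least 1.9-fold higher than on the AtT20 plates (-0.01 ± 0.15). Arvcf was at 2.61 ± 0.24 in N18 and near 0 in the others. Among the desmosomal plakophilins Pkp4 was at 3.04 ± 0.28, 2.30 ± 0.26 and 3.25 ± 0.79 and Pkp2 at 1.73 ± 0.34, -0.11 ± 0.06 and 1.02 ± 0.63 in N18, BV2 and AtT20. Both passed as lower in BV2 than on the AtT20 plates (log2 differences -2.07 ± 0.13 and -2.03 ± 0.16 SE, adjusted p = 7.0e-10 and 1.1e-08).

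**Figure D5:**
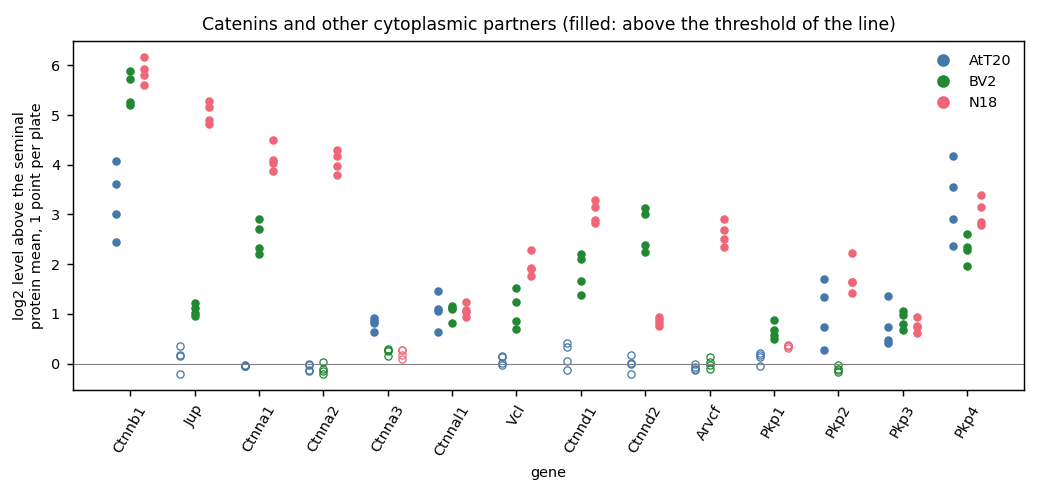
Level of the 14 cytoplasmic partner genes (x axis) in log2 units above the seminal protein mean (y axis), 1 point per plate and 4 plates per line, filled where the line's mean is above its threshold. Jup, Ctnna2 and Arvcf stand high in N18, Ctnnd2 in BV2, and Ctnna1, Ctnna2 and Ctnnd1 are near 0 on the AtT20 plates.

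Of 20 desmosomal, flamingo, calsyntenin and other related genes with probes, 7 were above the threshold in N18, 7 in BV2 and 8 on the AtT20 plates. The shares of all features were 55.4%, 53.3% and 35.0%. Under all 3 scalings 5 of the 20 were higher in N18 than in BV2 (Ret, Clstn1, Clstn3, Celsr2 and Celsr3) and 0 were lower, beside 18.7% and 7.16% of all features. Ret, the cadherin-domain receptor kinase of the neural crest, was at 5.09 ± 0.28 (SD, n = 4) in N18, 0.69 ± 0.03 in BV2 and 0.50 ± 0.12 on the AtT20 plates. The sheddase Adam10, which cuts cadherins from the surface, was at 3.49 ± 0.24, 3.54 ± 0.46 and 3.69 ± 0.65 in the same order. Adam10 and the other shedding genes with probes, 3 in all, passed as lower in N18 than in BV2 on the quantile scale, beside 21.9% of all features. Under all 3 scalings 1 of the 3 (Psen2) did, beside 7.16%.

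Genes that act on the choice of clustered protocadherin promoters were broadly present. Of 12 cohesin, CTCF and DNA methylation genes, 11 were above the threshold in N18 and in BV2 and 10 on the AtT20 plates. The shares of all features were 55.4%, 53.3% and 35.0%. Under all 3 scalings 3 of the 12 (Rad21, Smc1a and Smc3) were higher in N18 than in BV2, beside 18.7% of all features. Smchd1, a silencer of the clusters, was at 3.69 ± 0.30 (SD, n = 4) in N18, 2.85 ± 0.37 in BV2 and 0.21 ± 0.19 on the AtT20 plates, where it was not above the threshold. Dnmt3b was above in no line.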

How the data were processed

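RNA of 12 plates was labelled with Cy3 and hybridised to 60-mer arrays, 4 to a slide, and the authors deposited 1 log2 intensity for each of 72000 probes, apparently with no step that brings the arrays to a common scale. Which arrays shared a slide is not given in the sources used here, so no slide block was fitted. The members and gene lists were chosen with earlier results of these data known. Targets were named through a RefSeq table (17780 of 25631 matched). Probes were averaged within a target before taking log2, and targets within a gene after it.

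After quantile normalization of all probes, lines were compared in limma 3.58.1 (R 4.3.3; lmFit, then eBayes with its trend option). The Benjamini-Hochberg adjustment ran over 25128 features, and calls were made at an adjusted p under 0.05. With 4 arrays per line precision is limited, and p values measure the spread between plates of 1 culture. The fit was tested on simulated data. Tables were made with Python 3.11.15. Named were all Cdh genes above the threshold in at least 1 line, the 5 largest differences per comparison and direction among called members above the threshold in the higher line, the 5 highest levels per line, and the 3 largest partner differences per comparison. Other genes were named after their values were seen. Alternatives were 8 for the threshold and 11 for the comparisons, besides leaving out each plate, and 1 of them, the quantile normalization of the 8 arrays of a pair, was chosen after seeing the data.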

Additional observations from a re-analysis of the deposited data

Results flagged for a closer look

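In 90 groups of 4 plates, 1 for each named gene and line, 4 held a plate that stood apart from the other plates by the 95% limit of Dixon's test, where chance gives about 1 in 20. The highest N18 plate of Pcdhac1 was at 3.59, with the others at 2.82 to 2.84. The highest N18 plate of Pcdhgc4 was at 3.97, with the others at 3.57 to 3.63. Both were plate 2. On the AtT20 plates the lowest Cdh22 plate was at 0.12, with the others at 0.32 to 0.35, and the lowest Cdh5 plate was at -0.22, with the others at -0.11 to -0.09. The AtT20 groups were below the threshold.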

How the results depend on the processing

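Depth cannot be stated for arrays, and the narrow range of the AtT20 plates limits what can be seen there. Members above the threshold were 21, 20 and 23 on the AtT20 plates, in BV2 and in N18 as reported, beside 35.0%, 53.3% and 55.4% of all features. With the median of the probes they fell to 12 on the AtT20 plates and in BV2 (24.6% and 47.3% of all features). With olfactory receptor genes as controls they fell to 7 in BV2 and 15 in N18 (31.3% and 37.9%), and with 3 SD to 12 in BV2 (42.5%). With at least 2 probes above the threshold they were 12, 13 and 15 in the 3 lines (18.7%, 42.5% and 46.2%). The members called between N18 and BV2 (17) became 26 relative to the seminal proteins (51.9% of all features), 7 with a difference of at least 1 (9.83%), 34 in the 8 arrays of the pair (61.7%) and 36 with those 8 normalized alone (61.9%). Those between N18 and the AtT20 plates (40) became 23 of 31 members among features above the threshold (80.6% of those features) and 18 with a difference of at least 1 (31.4%), and those between BV2 and the AtT20 plates (43) became 25 (78.7%) and 18 (28.3%). The cause was not tested. Leaving out 1 plate gave 20 to 22, 18 to 20 and 23 to 24 members above the threshold on the AtT20 plates, in BV2 and in N18. It gave 15 to 22, 38 to 46 and 40 to 43 called in N18 minus BV2, N18 minus AtT20 and BV2 minus AtT20. The called shares of all features then ran from 35.0% to 47.6%, 73.0% to 78.2% and 69.8% to 75.7%.

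Of 43 differences of named genes, 25 kept direction and call under every alternative. Reversed were Cdh1 in N18 minus BV2 (-0.18 as reported, 0.19 with no normalization and 0.22 relative to the seminal proteins), Cdh5 in N18 minus BV2 (-0.03 as reported, 0.36 and 0.39 in these settings, 0.070 with the mean of log2 probes, 0.28 with the median, and -0.079 to 0.021 leaving out 1 plate), Cdh5 in N18 minus AtT20 (-0.15 with no normalization) and in BV2 minus AtT20 (-0.51 with no normalization, -0.23 with the median), Pcdh8 in BV2 minus AtT20 (0.15 with the median) and Pcdhb17 in N18 minus AtT20 (-0.27 with no normalization). Same-numbered plates of different lines deviated together by correlations of -0.11 to 0.32, the highest between plate 2 of N18 and plate 2 of BV2. The numbers were not used to pair the plates, and whether they mark a shared slide cannot be told from these values. With the replicate number as a block 19, 41 and 42 members were called in N18 minus BV2, N18 minus AtT20 and BV2 minus AtT20. The shares of all features were 40.2%, 76.1% and 73.3%.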
